A study of Mus musculus with 16 samples.

Results

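The GABA-A receptor subunit genes described here are Gabra3, Gabra4, Gabra5, Gabrb1, Gabrb2, Gabrg1 and Gabrd, which encode the alpha3, alpha4, alpha5, beta1, beta2, gamma1 and delta subunits. They were taken by symbol from the 24421 genes listed in the deposited tables, and all 7 were found. All 7 had reads in every library. Poly(A) RNA of the somatosensory cortex was sequenced from mice labelled male, of 2 to 3 months, all killed at ZT4, where ZT0 is light onset. The sex-linked reads of some control libraries did not match that label, as given below. Wild-type C57BL/6 mice (C57BL/6J in the study's methods) were either left undisturbed (CTL-WT) or kept awake by gentle handling from ZT20 to ZT4, termed sleep disruption (SD-WT). Mice lacking AcPb, the neuron-specific isoform of the interleukin-1 receptor accessory protein, were treated in both ways (CTL-AcPbKO and SD-AcPbKO). The AcPb-/- mice were homozygous and had been bred for several generations in the same facility as the wild-type mice. Each of the 4 groups had 3 libraries with values, out of 16 samples in the labels.

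After SD, Gabrd fell by 30.7% in wild-type mice and by 37.9% in AcPb-/- mice, and Gabrg1 fell by 25.8% and 30.3%. Gabra3 rose 1.18-fold and 1.23-fold. Gabra4 was lower after SD in wild-type mice and in the average over both genotypes, but its difference depended on which control libraries were used. Gabra5 passed the threshold in wild-type mice only among the comparisons made, with a wide spread in AcPb-/- mice, and Gabrb1 and Gabrb2 did not pass in any comparison. None of the 7 passed the threshold between genotypes.

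GABA-A receptors are chloride channels of 5 subunits opened by GABA, the main inhibitory transmitter of the cortex, and the subunits chosen set where the receptor sits and which drugs act on it. Most receptors combine alpha, beta and gamma subunits. Receptors at synapses carry fast inhibition, whereas receptors with delta, usually paired with alpha4 in forebrain, or with alpha5 lie largely outside synapses and carry tonic inhibition. Receptors with alpha3 or alpha5 can respond to the classical benzodiazepines, and those with alpha4 or delta do not. GABA-A receptors are the targets of many sedative and hypnotic drugs, which is why their subunit levels are of interest in a study of sleep loss.

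The libraries were not matched in every respect. The reads counted on genes were 32.9 to 41.6 M in CTL-WT, 58.8 to 71.8 M in SD-WT, 26.5 to 35.7 M in CTL-AcPbKO and 63.4 to 71.9 M in SD-AcPbKO, so the SD libraries were deeper. Xist, the RNA that coats the silenced X chromosome of females, had over 1000 reads in 2 of the 3 libraries of each control group (CTL-WT replicates 02 and 03, CTL-AcPbKO replicates 04 and 05) and in none of the SD libraries, although the labels give male mice. The libraries with Xist reads had 0 to 2 Y-linked reads, and the remaining libraries had 5105 to 10593 in place of Xist. The sex-linked reads of those controls thus did not match the male label. Between these controls and the SD libraries, SD and Xist status cannot be told apart, and the SD difference of each of the 7 genes is given also against the control library of each genotype that had no Xist reads. That control was 1 library per genotype, CTL-WT replicate 01 and CTL-AcPbKO replicate 03. Each had the highest striatal marker sum (25878 and 18187) and oligodendrocyte marker sum (94350 and 85296) of its group. Each also had the lowest sum of 9 immediate early genes, such as Fos and Arc (35252 and 37067). Differences between the kinds of control thus cannot be tied to Xist status alone. Library SD-AcPbKO replicate 04 stood apart in markers of choroid plexus, which summed to 17458 normalized counts there and to between 233 and 521 in the other 11 libraries. AcPb is 1 isoform of Il1rap, and counts per gene do not separate the isoforms, so the mean Il1rap levels (1497 normalized counts in CTL-WT, 1825 in SD-WT, 1583 in CTL-AcPbKO and 1971 in SD-AcPbKO) do not check the genotype. Nothing in the sources used here says whether replicates came from separate cages or days, and p-values measure the spread between these libraries.

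Levels were first set beside each other per length, as normalized counts per kilobase of annotated exon (the 12 libraries normalized together). Gabrb2 was the most abundant of the 7, at 3404 ± 243 per kilobase in CTL-WT (mean ± s.d., the standard deviation, n = 3). Gabra3 followed at 2051 ± 15.2, Gabrd at 1640 ± 88.1, Gabra4 at 1127 ± 101, Gabra5 at 617 ± 52.9, Gabrg1 at 125 ± 1.12 and Gabrb1 at 70.2 ± 6.51. No neighbours in this order overlapped between libraries in CTL-WT, CTL-AcPbKO or SD-WT. In SD-AcPbKO, Gabrd (897 to 1266 per kilobase) overlapped Gabra4 (858 to 979), and Gabra4 overlapped Gabra5 (604 to 943), so these neighbours could not be ordered there. Per-length levels depend on the annotation, since the exons of Gabrb1 span 13838 bases, against 2875 for Gabrd.

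**Figure D1:**
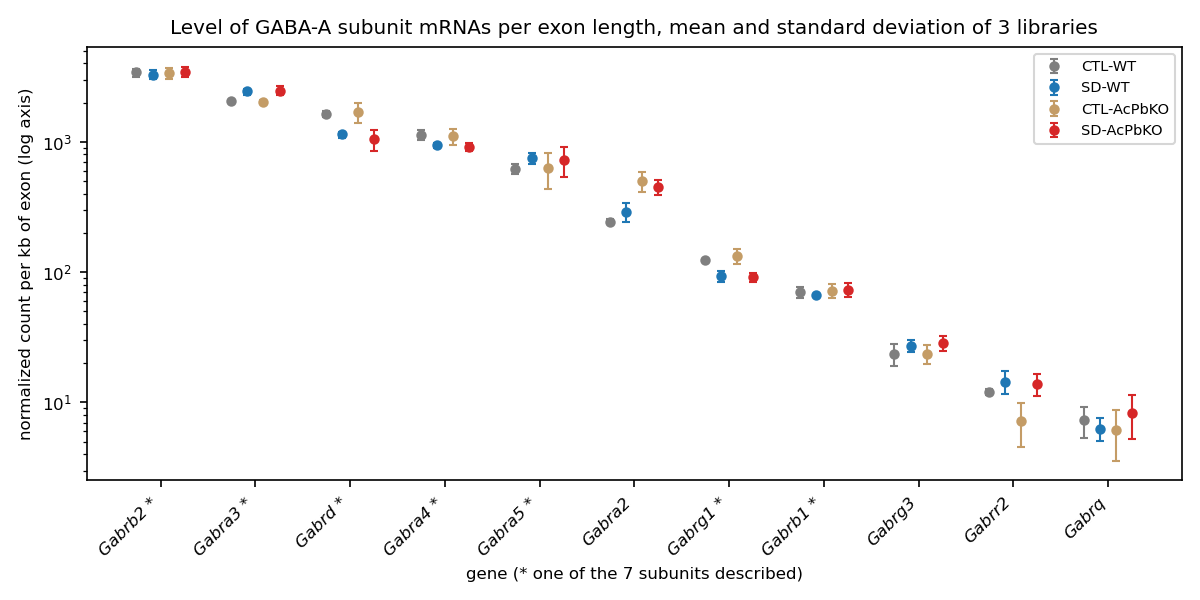
Mean level of 11 GABA-A receptor subunit genes per kilobase of exon (vertical axis, log scale, normalized counts per kilobase) in the 4 groups, with the standard deviation of 3 libraries as bars; genes are ordered by their CTL-WT mean and the 7 genes described are starred. Of those plotted, Gabrb2 was highest, and Gabrd lay at 1640 in CTL-WT and 1138 in SD-WT.

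The sum over the 7 genes was 9035 ± 373 per kilobase in CTL-WT, 8696 ± 258 in SD-WT, 8989 ± 657 in CTL-AcPbKO and 8769 ± 351 in SD-AcPbKO (n = 3 each), and the ranges of the groups overlapped. Within that sum the genes held different shares in control and SD libraries. The share of Gabra3 ranged from 21.6% to 23.6% in CTL-WT and from 27.2% to 28.6% in SD-WT, and was 22.4 ± 1.57% in CTL-AcPbKO and 28.2 ± 1.37% in SD-AcPbKO. The share of Gabrd was 18.2 ± 0.361% in CTL-WT and 13.1 ± 1.06% in SD-WT, and ranged from 16.5% to 20.8% in CTL-AcPbKO and from 10.5% to 14.8% in SD-AcPbKO. For both genes the control and SD ranges did not overlap in either genotype. The share of Gabrb2 was between 35.4% and 41.3% in every library. Shares are a description, since a gain by 1 gene lowers the share of the others, and mRNA shares do not give the make-up of receptors.

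Gabrd encodes the delta subunit of extrasynaptic receptors, and lies on chr4:155384980-155398112, minus strand (GRCm38, GENCODE M21). Its normalized counts were 4553, 4588 and 5008 in CTL-WT and 3240, 3117 and 3458 in SD-WT. They were 3909, 5045 and 5568 in CTL-AcPbKO and 2775, 3640 and 2580 in SD-AcPbKO. Every SD library lay below every control library of its genotype, with the smallest gap between SD-AcPbKO replicate 03 and CTL-AcPbKO replicate 03. Here and below, levels come from the 12 libraries normalized together, and changes within 1 genotype from the deposited table of those 6 libraries, tested with limma and adjusted over all genes. Gabrd changed by a log2 fold change of -0.53 in wild-type mice (95% interval -0.67 to -0.38, adjusted p = 0.000699) and of -0.69 in AcPb-/- mice (-1.04 to -0.34, adjusted p = 0.0118). Averaged over genotypes in the fit of 12 libraries it was -0.61 (-0.81 to -0.41, adjusted p = 0.000181). In AcPb-/- mice the call was lost without CTL-AcPbKO replicate 04 (adjusted p = 0.0515) or without SD-AcPbKO replicate 02 (0.0649). In whole tissue, fewer cells that express a gene and less RNA per cell cannot be told apart, for this and every gene below.

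Against the 1 control library without Xist reads, the mean of the 3 SD libraries differed by -0.48 (log2) in wild-type mice and by -0.40 in AcPb-/- mice, against -0.55 and -0.84 for the 2 controls with Xist reads. Gabrd was thus lower after SD against either kind of control, by a smaller margin in AcPb-/- mice against the control without Xist reads. In a fit of the 8 libraries without Xist reads, the change averaged over genotypes was -0.44 and did not pass (adjusted p = 0.0629).

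**Figure D2:**
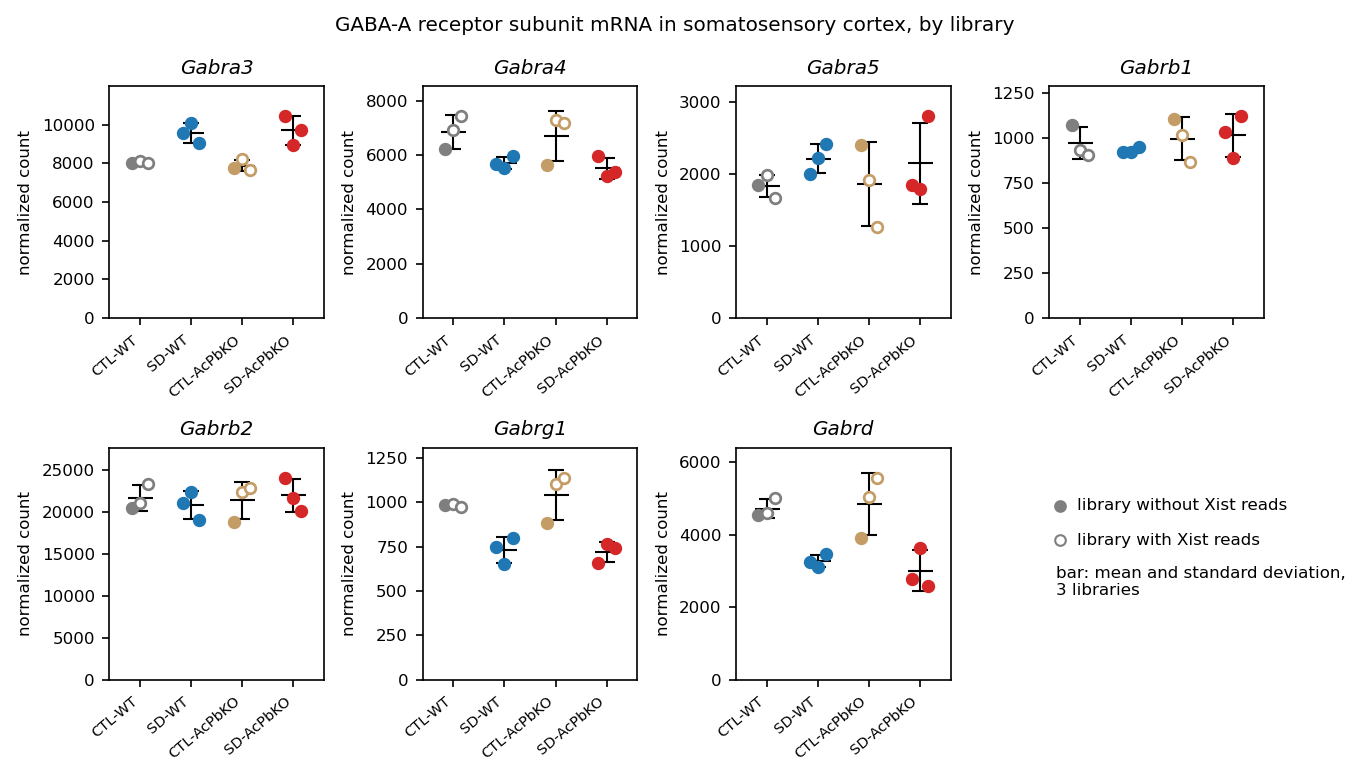
Normalized counts of the 7 subunit genes (vertical axes start at 0) in each of the 12 libraries, by group, with the mean and standard deviation of 3 libraries; open points are control libraries with Xist reads. Gabrd and Gabrg1 lay lower and Gabra3 higher in every SD library than in any control of the same genotype.

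Gabrg1 encodes gamma1, a gamma subunit found in a minority of receptors, and lies on chr5:70751047-70842617, minus strand. Its normalized counts were 986, 989 and 972 in CTL-WT and 745, 653 and 798 in SD-WT. They were 881, 1102 and 1138 in CTL-AcPbKO and 658, 762 and 740 in SD-AcPbKO. All SD libraries lay below all controls of their genotype, and the CTL-WT libraries were tightly grouped. The log2 fold change was -0.43 in wild-type mice (95% interval -0.62 to -0.24, adjusted p = 0.00519), -0.52 in AcPb-/- mice (-0.77 to -0.27, adjusted p = 0.00937) and -0.48 averaged over genotypes (-0.63 to -0.32, adjusted p = 0.000176). Each of these calls was kept when any 1 library was left out, with adjusted p up to 0.0297 in wild-type and 0.0486 in AcPb-/- mice. Against the control without Xist reads the SD libraries differed by -0.43 (wild-type) and -0.29 (AcPb-/-) on the log2 scale, and against the controls with Xist reads by -0.43 and -0.64. In the 8 libraries without Xist reads the change averaged over genotypes was past the threshold (adjusted p = 0.0444), as 1 of only 2 members.

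Gabra3 encodes alpha3 and lies on chrX:72432681-72656848, minus strand. Its normalized counts were 8037, 8113 and 7995 in CTL-WT and 9556, 10059 and 9033 in SD-WT. They were 7779, 8209 and 7653 in CTL-AcPbKO and 10428, 8951 and 9702 in SD-AcPbKO. Every SD library lay above every control library of its genotype, and the controls of both genotypes spanned 7653 to 8209. The log2 fold change was 0.24 in wild-type mice (95% interval 0.11 to 0.38, adjusted p = 0.0138), 0.30 in AcPb-/- mice (0.14 to 0.46, adjusted p = 0.0138) and 0.27 averaged over genotypes (0.18 to 0.37, adjusted p = 0.000286). In wild-type mice the call was lost without CTL-WT replicate 02 (adjusted p = 0.0567), SD-WT replicate 01 (0.0547) or SD-WT replicate 02 (0.0701). In AcPb-/- mice and in the average it was kept with each library left out. Although Gabra3 is X-linked, its SD difference was alike for both kinds of control, at 0.25 against the control without Xist reads and 0.24 against those with them in wild-type mice, and 0.31 and 0.29 in AcPb-/- mice. In the 8 libraries without Xist reads it passed in the average over genotypes (adjusted p = 0.0370).

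The sequences upstream of Gabrg1 and Gabra3 are shown because these are the genes with an upstream window that passed the threshold after SD in both genotypes, in opposite directions. Of the 7 genes, 6 have such a window in RefSeq (GRCm38.p6), and Gabrd does not. The 250 bases before the start are printed 5′ to 3′ on the gene's strand, with each CpG dinucleotide, the site of most DNA methylation, in capitals. The window of Gabrg1 is chr5:70842618-70842867 and that of Gabra3, for the more upstream of its 2 starts, is chrX:72656920-72657169, both on the minus strand and outside annotated exons.
Gabrg1: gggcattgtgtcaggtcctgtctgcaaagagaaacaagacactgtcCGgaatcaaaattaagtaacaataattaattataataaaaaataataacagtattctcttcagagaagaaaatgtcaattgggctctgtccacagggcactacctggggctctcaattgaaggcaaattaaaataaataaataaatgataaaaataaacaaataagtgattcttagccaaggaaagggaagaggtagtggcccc
Gabra3: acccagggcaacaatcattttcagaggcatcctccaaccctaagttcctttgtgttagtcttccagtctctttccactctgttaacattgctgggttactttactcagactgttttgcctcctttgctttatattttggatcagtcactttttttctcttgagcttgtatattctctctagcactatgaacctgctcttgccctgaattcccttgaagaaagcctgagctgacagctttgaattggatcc
The Gabrg1 window holds 1 CpG and 35.6% G or C, and the Gabra3 window 0 CpG and 42.4%, whereas the median over all 32851 RefSeq windows was 6 CpG and 52.4%. Both windows are therefore CpG-poor, while that of Gabra5 holds 9 CpG and that of Gabra4 12. The cAMP response element TGACGTCA and the AP-1 motif TGANTCA, searched on both strands because they bind activity-driven factors, were in none of the 10 windows of the members, and in 1.55% and 6.75% of all windows. The absence says only that these letters are not in these windows.

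Gabra4 encodes alpha4, the usual partner of delta in forebrain, and lies on chr5:71569749-71658308, minus strand. Its normalized counts were 6208, 6934 and 7430 in CTL-WT and 5665, 5525 and 5971 in SD-WT. They were 5644, 7298 and 7186 in CTL-AcPbKO and 5958, 5217 and 5395 in SD-AcPbKO. The wild-type groups did not overlap, whereas in AcPb-/- mice CTL-AcPbKO replicate 03 lay within the SD range. The log2 fold change was -0.26 in wild-type mice (95% interval -0.42 to -0.10, adjusted p = 0.0256), -0.27 in AcPb-/- mice (-0.50 to -0.04, adjusted p = 0.0850, not past the threshold) and -0.27 averaged over genotypes (-0.41 to -0.12, adjusted p = 0.00667).

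The Gabra4 difference moved with the kind of control. Against the control without Xist reads it was -0.12 (log2) in wild-type and -0.03 in AcPb-/- mice, and against the controls with Xist reads -0.33 and -0.39. In both genotypes the control without Xist reads was the lowest of the 3 and the nearest to the SD libraries. It was 1 library per genotype, which also differed from its group in the marker sums given above. With a term for Xist reads in the fit of 12 libraries the average over genotypes was -0.08 (adjusted p = 0.387), and in the 8 libraries without them it was -0.07 (adjusted p = 0.433). In wild-type mice the call was also lost without CTL-WT replicate 02 (adjusted p = 0.0957), CTL-WT replicate 03 (0.0878), SD-WT replicate 01 (0.0886) or SD-WT replicate 02 (0.102). Without CTL-AcPbKO replicate 03 the AcPb-/- change was -0.39 and passed (adjusted p = 0.00702). The AcPb-/- change also passed by DESeq2 and in the joint fit of 12 libraries, 3 of 18 alternatives in all.

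**Figure D3:**
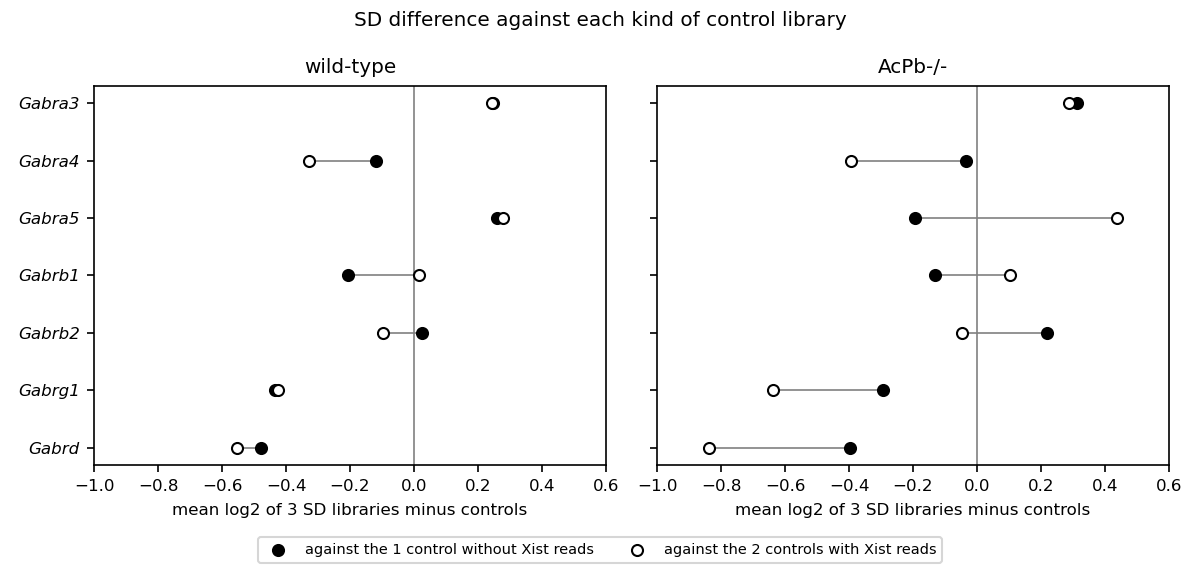
Difference between the mean log2 level of the 3 SD libraries and that of the control libraries of the same genotype (horizontal axis, log2), for the 1 control without Xist reads (filled) and the 2 controls with Xist reads (open). The symbols nearly coincide for Gabra3 in both genotypes, and for Gabra4 lie apart at -0.12 and -0.33 in wild-type mice and -0.03 and -0.39 in AcPb-/- mice.

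Gabra5 encodes alpha5, the subunit of tonic receptors best known from hippocampal pyramidal cells and also found in deep cortical layers, and lies on chr7:57407672-57510059, minus strand. Its normalized counts were 1846, 1987 and 1673 in CTL-WT and 2008, 2223 and 2418 in SD-WT. They were 2410, 1921 and 1259 in CTL-AcPbKO and 1853, 1798 and 2804 in SD-AcPbKO. The wild-type groups were separated by a narrow gap, and the AcPb-/- groups overlapped over most of their range. The coefficient of variation was 31.0% in CTL-AcPbKO and 26.3% in SD-AcPbKO, against 8.58% in CTL-WT and 9.26% in SD-WT. The log2 fold change was 0.27 in wild-type mice (95% interval 0.08 to 0.46, adjusted p = 0.0412), 0.23 in AcPb-/- mice (-0.31 to 0.77, adjusted p = 0.531) and 0.25 averaged over genotypes (-0.06 to 0.56, adjusted p = 0.197). The wild-type call was kept in 1 of the 6 fits that left out a library, the one without SD-WT replicate 01, and in the others the adjusted p reached 0.132. It was also lost with libraries thinned to the smallest total (adjusted p = 0.0606). In the average, the change passed only without CTL-AcPbKO replicate 03 (0.35, adjusted p = 0.0443). Against the control without Xist reads the SD libraries differed by 0.26 (log2) in wild-type and by -0.19 in AcPb-/- mice, and against the controls with Xist reads by 0.28 and 0.44. In AcPb-/- mice the direction thus depended on the kind of control, and the control without Xist reads there was replicate 03.

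SD-AcPbKO replicate 04 and CTL-AcPbKO replicate 03, which had the highest Gabra5 of their groups, also had the highest sums of the 7 deep-layer markers (Fezf2, Bcl11b, Etv1, Foxp2, Tle4, Ctgf and Nxph4) and of the 5 hippocampal markers (Prox1, C1ql2, Spink8, Fibcd1 and Zbtb20). The deep-layer sum was 13697 in SD-AcPbKO replicate 04 and 12911 in CTL-AcPbKO replicate 03. It ranged from 8717 to 10044 in CTL-WT, 9240 to 11087 in SD-WT, 6458 to 12911 in CTL-AcPbKO and 10650 to 13697 in SD-AcPbKO. The hippocampal sum was 2054 and 2155 in those libraries, within ranges of 1063 to 1325 in CTL-WT, 1055 to 1497 in SD-WT, 1251 to 2155 in CTL-AcPbKO and 1131 to 2054 in SD-AcPbKO. CTL-AcPbKO replicate 05, with the lowest Gabra5, had the lowest deep-layer sum. Of the deep-layer markers, 2 of 7 rose after SD in wild-type mice and 1 of 7 in AcPb-/- mice, and of the hippocampal markers 0 of 5 passed in either. Of the striatal markers 2 of 8 fell in wild-type mice, of the choroid plexus markers 1 of 4 rose, and none of either passed in AcPb-/- mice. Of all genes, 25.4% passed in wild-type and 27.4% in AcPb-/- mice. None of these markers was at 0 in any group. Their part in the Gabra5 values was not tested.

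Gabrb1 and Gabrb2 encode beta1 and beta2, subunits that contribute to the GABA binding site. Gabrb1, on chr5:71658113-72149037, plus strand, had normalized counts of 1075, 935 and 906 in CTL-WT, 921, 924 and 948 in SD-WT, 1106, 1017 and 869 in CTL-AcPbKO, and 1034, 888 and 1121 in SD-AcPbKO. The groups overlapped in both genotypes, and the log2 fold change averaged over genotypes was -0.02 (95% interval -0.17 to 0.14, adjusted p = 0.874). Gabrb2, on chr11:42419757-42629028, plus strand, had 20445, 21116 and 23393 in CTL-WT, 21070, 22408 and 19073 in SD-WT, 18841, 22410 and 22931 in CTL-AcPbKO, and 24105, 21712 and 20184 in SD-AcPbKO. These groups overlapped as well, and the averaged change was -0.0066 (-0.15 to 0.14, adjusted p = 0.946). Within genotypes the changes of both genes lay between -0.06 and 0.04, and every 95% interval lay within -0.24 to 0.29. These intervals leave out changes of the size seen for Gabrd in wild-type mice, but not every smaller one. Against the control without Xist reads the SD libraries differed for Gabrb1 by -0.21 (log2) in wild-type and -0.13 in AcPb-/- mice, and against those with Xist reads by 0.016 and 0.10. For Gabrb2 the differences were 0.025 and 0.22 against the former and -0.095 and -0.047 against the latter, so that for both genes the direction turned with the kind of control in both genotypes.

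**Figure D4:**
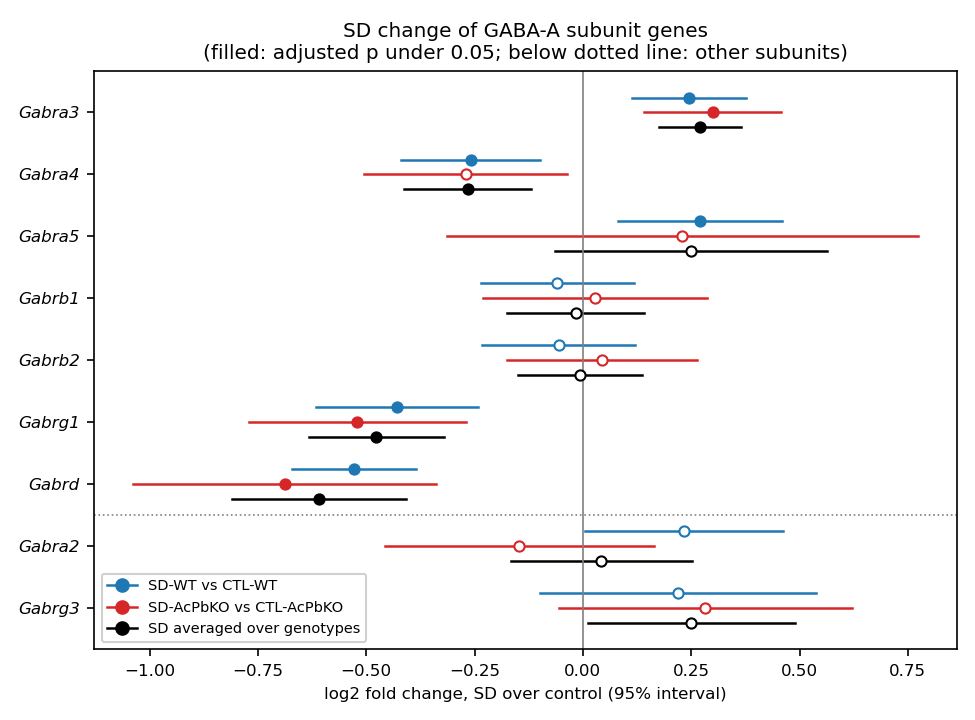
Log2 fold change of SD over control with its 95% interval (horizontal axis) for the 7 subunit genes and, below the dotted line, 2 neighbours from their clusters, Gabra2 and Gabrg3; blue is wild-type, red AcPb-/- and black the average over genotypes, and filled points have an adjusted p under 0.05. Gabrd, Gabrg1 and Gabra3 were filled in all 3 comparisons, and Gabra2 and Gabrg3 in none.

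In wild-type mice, 5 of the 7 subunit genes passed an adjusted p under 0.05 after SD, 2 higher and 3 lower, where 25.4% of the 20417 genes tested passed. In 5 of the 7 the groups did not overlap, against 40.2% of all genes tested. In AcPb-/- mice, 3 of the 7 passed, 1 higher and 2 lower, where 27.4% of 20574 genes did, and in 3 the groups did not overlap, against 42.4% of all genes. Averaged over genotypes, 4 of the 7 passed, 1 higher and 3 lower, against 41.5% of 20978 genes. The wild-type count of 5 in 7 was above the share of all genes. It fell to between 2 and 4 when 1 library was left out, where 13.3% to 30.7% of all genes passed. The counts of 3 in AcPb-/- mice and 4 in the average were nearer to theirs. With only 7 genes, nothing particular to them is read from these counts. The median log2 fold change of the 7 was -0.06 in wild-type and 0.03 in AcPb-/- mice, and that of all genes was -0.00049 and 0.0068. In the joint fit of the 8 libraries without Xist reads, 0 of the 7 passed in wild-type mice, where 3.31% of all genes did, and 0 in AcPb-/- mice, where 10.1% did, with 2 and 1 of them at an unadjusted p under 0.05 by limma. In the average 2 passed, Gabra3 and Gabrg1, where 24.7% of all genes did.

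None of the 7 genes passed between genotypes. The log2 fold changes of CTL-AcPbKO over CTL-WT ran from -0.04 (Gabra4) to 0.07 (Gabrg1), with 0 of 7 past the threshold, where 0.0197% of 20273 genes passed. Between SD-AcPbKO and SD-WT they ran from -0.14 (Gabrd) to 0.12 (Gabrb1), with 0 of 7 past it, where 0.0145% of 20621 genes passed. At an unadjusted p under 0.05 there were also 0 of 7 in both comparisons by limma, edgeR and DESeq2. Of all genes, 1730, 1600 and 1135 were under it between control groups by these tools, and 1265, 1207 and 958 between SD groups. The groups of each gene overlapped in both comparisons. The widest 95% interval was that of Gabra5 between the control groups, -0.46 to 0.41, and the narrowest that of Gabra3, -0.14 to 0.08.

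The difference of the SD changes between genotypes was tested as an interaction in the 12 libraries. It was past the threshold for 0 of the 7, and 0% of 20978 genes passed by limma, with 839 at an unadjusted p under 0.05. By edgeR 0 genes and by DESeq2 1 gene passed, with 711 and 549 at an unadjusted p under 0.05, and none of the 7 was among those of any tool. The interaction was -0.16 for Gabrd (95% interval -0.56 to 0.24, adjusted p = 0.986) and -0.09 for Gabrg1 (-0.41 to 0.22, adjusted p = 0.986). For Gabra3 it was 0.05 (-0.14 to 0.24, adjusted p = 0.986). Gabra4 and Gabra5 passed after SD in wild-type but not in AcPb-/- mice. Their interactions were -0.015 (-0.31 to 0.28, adjusted p = 0.9995) and -0.045 (-0.67 to 0.58, adjusted p = 0.999). The larger fall of Gabrd in AcPb-/- mice was thus within the spread between libraries.

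Several of the 7 lie in the clusters in which GABA-A receptor genes are arranged. Gabrg1, Gabra2, Gabra4 and Gabrb1 follow each other on chromosome 5, with 115 kb between Gabrg1 and Gabra2 and 474 kb between Gabra2 and Gabra4. Gabra4 and Gabrb1 run in opposite directions and overlap by 196 bases at their starts, of which 46 are exonic in both, or 0.756% of the exon bases of Gabra4. The 4 neighbours did not move together after SD, since averaged over genotypes Gabrg1 and Gabra4 fell, Gabrb1 stood at -0.02 and Gabra2 at 0.04 (adjusted p = 0.759). Gabra2, which encodes alpha2, was 2.02-fold higher in CTL-AcPbKO than in CTL-WT (log2 fold change 1.01, adjusted p = 0.0275), a difference none of its neighbours among the 7 shared past the threshold. The groups did not overlap, at 3152 to 4525 against 1819 to 1951 normalized counts. The Gabra2 call was lost with a pseudocount of 10 (adjusted p = 0.0829), with thinned libraries (0.137), with no filter (0.294), without the Xist libraries (0.453), without CTL-AcPbKO replicate 04 (0.227) and without CTL-WT replicate 01 (0.130), 02 (0.466) or 03 (0.260). Over these alternatives its log2 fold change lay between 0.88 and 1.05. The call was kept by DESeq2 (adjusted p = 5.3e-15), by edgeR (0.0074) and in the joint fit without (0.0265) or with (0.0270) a term for Xist libraries. It was also kept with TMM scaling (0.0279), a pseudocount of 0.1 (0.0406) or a minimum mean of 10 (0.0480). Leaving out CTL-AcPbKO replicate 03 (0.00499) or 05 (0.00474) kept it as well. Between SD-AcPbKO and SD-WT Gabra2 stood at 0.63 (adjusted p = 0.224), again with groups that did not overlap, and passed there by DESeq2 (0.00134) but not by edgeR (0.149). Gabra5 lies 20.5 kb from Gabrg3 on chromosome 7 and 148 of its exon bases (4.98%) overlap the predicted gene Gm9962. Since the strand setting of the counting is not given in the sources used here, reads from these overlaps may be counted for either gene. Gabra3 lies on X between Gabre and Gabrq, which were near 0 (0.790 and 7.28 per kilobase in CTL-WT), and Gabrb2 on chromosome 11 near Gabra6.

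A further 9 subunit genes (Gabra2, Gabra6, Gabrg3, Gabre, Gabrp, Gabrq, Gabrr1, Gabrr2 and Gabrr3) were read beside the 7. By limma 0 of the 8 tested passed after SD in wild-type mice, where 25.4% of all genes did. Gabra2 had an unadjusted p of 0.0458 there by limma (log2 fold change 0.23, adjusted p = 0.126). In AcPb-/- mice 0 of 9 passed, where 27.4% of all genes did. Gabrr2, which encodes a rho subunit, had an unadjusted p of 0.0216 there by limma (0.95, adjusted p = 0.0693). By edgeR and DESeq2 0 passed in either genotype as well. In the average over genotypes 1 of 9 passed, where 41.5% of all genes did, and the median of the 9 was 0.12. That gene was Gabrr2 (0.59, adjusted p = 0.0360), which had only 15.1 to 30.3 normalized counts on average per group and did not pass without the Xist libraries (0.35, adjusted p = 0.310). Gabrg3, which encodes gamma3, stood at 0.25 there and did not pass (adjusted p = 0.0893).

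Genes that act with these receptors were described by lists, given for the average over genotypes, where 41.5% of all genes passed and the median of all genes was 0.0010. Of 24 genes for receptor scaffolding and trafficking that were tested, 17 passed, 13 higher and 4 lower, with a median of 0.14. Shisa7, an auxiliary protein of GABA-A receptors, rose by 0.71 on the log2 scale (adjusted p = 2.3e-05), Gphn, which encodes the synaptic scaffold gephyrin, by 0.37 (6.7e-05), and Plcl2, which encodes a relative of the receptor-trafficking protein PRIP1, by 0.41 (4.4e-05). Mkln1, which encodes the receptor-binding protein muskelin, rose by 0.30 (4.3e-05) and Trak2, an adaptor of kinesin transport, by 0.20 (0.00047). Nlgn2, the adhesion protein of inhibitory synapses, fell by 0.32 (3.1e-05). In wild-type mice alone 6 of 24 rose and 1 fell, near the 25.4% of all genes that passed there. In AcPb-/- mice 10 rose and 2 fell, where 27.4% of all genes passed. The 8 libraries without Xist reads were read for this and the next lists after seeing the data. They are part of the 12 behind these calls and hold 1 control per genotype, so agreement there is partly built in. Shisa7 stood at 0.58 there, Plcl2 at 0.42, Gphn at 0.39, Mkln1 at 0.28, Trak2 at 0.19 and Nlgn2 at -0.34. The median of the 24 genes was 0.15.

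Of 10 genes of GABA synthesis, release, uptake and breakdown, 3 rose and 2 fell, with a median of 0.0082. Gad2, which encodes a GABA-synthesizing enzyme, rose by 0.22 (adjusted p = 0.0024), Glul, encoding glutamine synthetase, by 0.40 (0.00037) and Slc38a1, a neuronal glutamine transporter, by 0.29 (0.00014). Slc32a1, the vesicular GABA transporter, fell by 0.36 (0.00019), and Slc6a11, a plasma membrane GABA transporter, by 0.26 (0.0023). Without the Xist libraries Gad2 stood at 0.25, Glul at 0.48, Slc38a1 at 0.26, Slc32a1 at -0.42 and Slc6a11 at -0.29. Of 12 genes that set neuronal chloride, 3 rose and 5 fell, with a median of -0.02. The kinase genes Wnk1, Wnk3 and Stk39, which regulate chloride cotransporters, rose by 0.38 (0.00028), 0.27 (0.00025) and 0.21 (0.00039). Slc4a3, an anion exchanger, fell by 0.47 (6.2e-06), Slc12a5, which encodes the chloride exporter KCC2, by 0.24 (0.0016), and Slc12a2, the importer NKCC1, by 0.20 (0.014). Without the Xist libraries Wnk1 stood at 0.28, Wnk3 at 0.25, Stk39 at 0.21, Slc4a3 at -0.46, Slc12a5 at -0.21 and Slc12a2 at -0.24.

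Of 8 genes of the metabotropic GABA-B receptor and its partners, 4 rose and 3 fell, with a median of 0.0085. Kcnj6, a potassium channel subunit opened by the receptor, rose by 0.50 (adjusted p = 0.00011), whereas the related Kcnj3 and Kcnj9 fell by 0.28 (0.0054) and 0.19 (0.018). The auxiliary subunit gene Kctd16 fell by 0.53 (0.00013) and Kctd8 rose by 0.32 (0.020). Gabbr1, a subunit of the receptor itself, rose by 0.14 (0.013). Without the Xist libraries Kcnj6 stood at 0.53, Kctd8 at 0.42, Gabbr1 at 0.12, Kctd16 at -0.50, Kcnj9 at -0.15 and Kcnj3 at -0.11. No gene past the threshold in these 4 lists changed sign there, but those libraries are part of the 12 that gave the calls. A kept sign is not a kept call. Genes of each of these lists, such as Kcnj3, Kcnj9 and Gabbr1, did not pass there, with 1 control per genotype. The GABA-B genes thus did not move in 1 direction, as the GABA-A subunit genes did not.

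**Figure D5:**
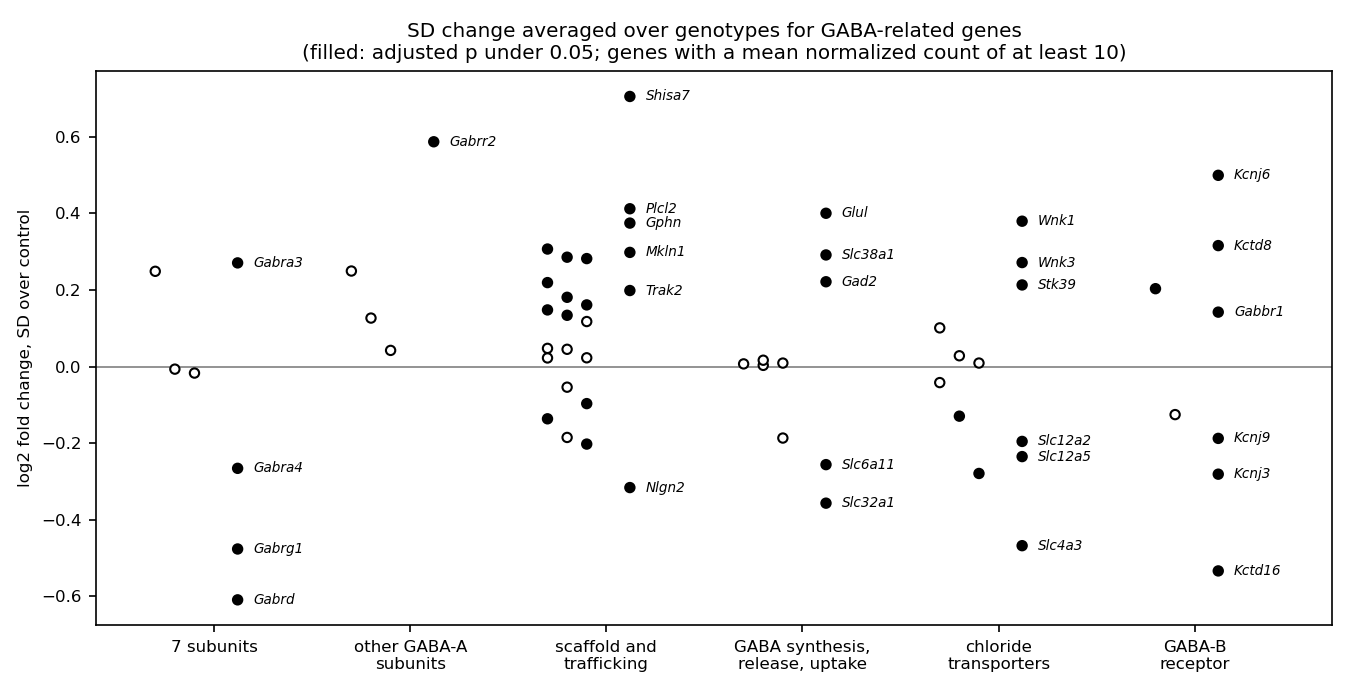
Log2 fold change of SD over control averaged over genotypes (vertical axis) for the 7 subunit genes and 5 lists of related genes whose normalized counts averaged 10 or more; filled points have an adjusted p under 0.05, and up to 6 with the lowest p are named per list. Gabrd at -0.61 was the lowest point and Shisa7 at 0.71 the highest.

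Markers of the cell types and layers that hold these subunits were read beside the members. Of all genes, 25.4% passed after SD in wild-type mice and 27.4% in AcPb-/- mice, and the marker counts below stand beside these shares. The sums for excitatory neurons, astrocytes and oligodendrocytes are mostly 1 gene each, Camk2a, Slc1a2 and Mbp (means of 206371, 183905 and 57698 in CTL-WT). The tissue carried cortical markers, with Slc17a7 of excitatory neurons between 54584 and 70530 normalized counts on average per group. The sum of 5 excitatory neuron markers ranged from 271211 to 309637 in CTL-WT, 273495 to 351103 in SD-WT, 293618 to 341063 in CTL-AcPbKO and 306176 to 350836 in SD-AcPbKO. The ranges overlapped, and 2 of 5 markers (Neurod6 and Nrn1) were higher after SD in each genotype. The mean of Slc17a7 was lower after SD, at 54584 against 64614 in wild-type mice and 60813 against 70530 in AcPb-/- mice. It did not pass within either genotype. In the average over genotypes 3 of the 5 markers passed higher and 1 lower, where 41.5% of all genes passed. The sum of 5 upper-layer markers ranged from 50157 to 54024 in CTL-WT, 51519 to 63062 in SD-WT, 41128 to 61692 in CTL-AcPbKO and 43068 to 55804 in SD-AcPbKO, with CTL-AcPbKO replicate 03 the lowest. That library also had the lowest Gabra4, Gabrd and Gabrg1 of its group. In wild-type mice 1 of 5 upper-layer markers (Lamp5) rose and 2 (Cux2 and Rorb) fell, and in AcPb-/- mice 1 (Cux2) fell. The sum of 7 astrocyte markers ranged from 225461 to 266397 in CTL-WT, 231899 to 260193 in SD-WT, 224359 to 254970 in CTL-AcPbKO and 219635 to 240682 in SD-AcPbKO. Of these, Aldh1l1 and Aqp4 fell in wild-type mice and Aldh1l1 in AcPb-/- mice. The sum of 8 interneuron markers was 40715 to 44840 in CTL-WT and 50017 to 51548 in SD-WT, with 4 of 8 higher, and 36022 to 43646 in CTL-AcPbKO and 39368 to 43088 in SD-AcPbKO, with 1 higher and 1 lower. Lamp5, also an upper-layer marker, made up most of the wild-type rise, with means of 16836 in CTL-WT and 25169 in SD-WT. The means of Vip, Npy and Lhx6 were also higher in SD-WT, and those of Cck, Sst, Pvalb and Adarb2 were lower. Of 5 oligodendrocyte markers, 3 (Cnp, Mag and Mog) fell after SD in wild-type mice, with a median of -0.50, and 1 (Cnp) in AcPb-/- mice, with a median of -0.19. Their sum ranged from 72200 to 94350 in CTL-WT, 59498 to 85185 in SD-WT, 35824 to 85296 in CTL-AcPbKO and 48104 to 74660 in SD-AcPbKO. Of 4 meningeal fibroblast markers, 2 (Col1a1 and Col1a2) fell in wild-type mice, with a median of -0.52, and 1 (Col1a1) in AcPb-/- mice, with a median of -0.37. Their sum was lower in every SD library than in any control of its genotype, as Gabrd and Gabrg1 were, at 2791 to 3082 in CTL-WT and 1682 to 2646 in SD-WT, and 3115 to 3585 in CTL-AcPbKO and 2047 to 2982 in SD-AcPbKO. Endothelial markers moved in both directions, with 2 of 4 higher and 1 lower in each genotype. No marker of these lists was at 0 in any group. The part of these markers in the subunit changes was not tested.

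Across the 12 libraries, the members fell into few patterns, given here as a description, since the libraries share group, depth and, in the controls, Xist status. Pearson's r of log2 levels was 0.94 between Gabrg1 and Gabrd, 0.82 between Gabra4 and Gabrd, -0.92 between Gabra3 and Gabrg1 and -0.90 between Gabra3 and Gabrd. For Gabrb2, r was 0.18 to Gabra3 and to Gabrd, 0.025 to Gabrg1, 0.42 to Gabra4 and -0.66 to Gabra5. Among the 12522 genes whose normalized counts averaged 100 or more, those most like a member over the 12 libraries were Pex26 for Gabrd (r = 0.98), Ddx5 for Gabra3 (0.99) and Stradb for Gabra4 (0.98). They were Gap43 for Gabra5 (0.91), Syt10 for Gabrb1 (0.93) and Jmy for Gabrb2 (0.91). The best correlations of Gabra5, Gabrb1 and Gabrb2, which did not pass in the average over genotypes, were lower than those of Gabrd, Gabra3 and Gabra4, which did. A gene that passes there shares its group difference with many others, as 41.5% of all genes passed, so this order is not particular to the members.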

How the data were processed

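RNA of the somatosensory cortex was sequenced from 12 mice with deposited values, 3 per group; a further 4 samples of the labels were not analysed here. Per the labels and methods, the authors aligned reads to mm10 with HISAT2 (version 2.2.1) and ran DESeq2 on pairs of groups. The processing notes name featureCounts and the methods HTSeq as the counter. The deposited values are signal: read counts per gene divided by the library's DESeq2 size factor, in 5 tables of 24421 genes. The authors' columns of fold changes, their errors, test statistics and p-values were not used, nor was the table that changes genotype and SD together.

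Undoing the size factors gave whole reads, within 0.01, for 100% of 732630 values. Each table was tested with limma (version 3.58.1, R 4.3.3, variance trend) on log2(deposited normalized count + 1) over genes with a read, with Benjamini-Hochberg adjustment over all genes and a threshold of 0.05. The average over genotypes and the interaction were fitted on 12 libraries normalized together. A fold change on this scale understates low genes. The scripts were tested on simulated data. Alternatives were pseudocounts of 0.1 and 10, a minimum mean of 10, no filter, TMM scaling, edgeR (version 4.0.16) and DESeq2 (version 1.42.0) on recovered reads, thinning to 26504840 reads (seed 1), a joint fit, a term for Xist libraries (over 1000 reads), leaving those out, a replicate block, and leaving out each library. Genes were located in GENCODE M21 (GRCm38). No pair of replicates agreed within sampling noise. Every member is named; of each list up to 6 genes with the lowest p, and markers where they bear on a member. Some genes of the lists and their neighbours are not reported here, and counts and sums leave them out. Members and lists were chosen with earlier results of these data known. Python 3.11.15 with pandas 2.3.3 and matplotlib 3.10.9 was used for tables and figures.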

Additional observations from a re-analysis of the deposited data

How the results depend on the processing

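Counts of members past the threshold changed with Xist status, the filter and the choice of libraries. Of the 7, 5 passed after SD in wild-type mice, with 3 in the joint fit of 12 libraries (24.3% of all genes), 3 with no filter (12%), 1 with a term for Xist libraries (19.3%), 0 without the Xist libraries (3.31%) and 2 to 4 with 1 library left out (2 without CTL-WT replicate 02 or SD-WT replicate 02, 3 without CTL-WT replicate 03 or SD-WT replicate 01). In AcPb-/- mice 3 passed, with 1 under no filter (16.5% of all genes), 0 without the Xist libraries (10.1%) and 2 to 4 with 1 library left out. In the average over genotypes 4 passed, with 2 without the Xist libraries (24.7% of all genes), 3 with a term for them (30.8%) and 4 to 5 with 1 library left out. With 1 library left out, the share of all genes that passed was 13.3% to 30.7% in wild-type mice. It was 16.6% to 26.6% in AcPb-/- mice and 36.9% to 42% in the average. The fit without the Xist libraries leaves 1 control per genotype, assumed to vary like the SD libraries. Between genotypes and for the interaction 0 of the 7 passed under each alternative run. Over the alternatives, log2 fold changes past the threshold kept direction and call in 192 cases and direction alone in 44. Those not past it kept both in 512 cases, crossed the threshold in 4 and changed sign in 67, and the values that changed sign follow. Between control groups Gabra5 was 0.022 with DESeq2 and 0.020 with edgeR. Without the Xist libraries, Gabra4 was 0.088, Gabrg1 was 0.14 and Gabrd was 0.083 for the interaction, Gabra5 was -0.19 and Gabrb1 was -0.13 for SD in AcPb-/- mice, Gabra5 was 0.38, Gabrg1 was -0.17 and Gabrd was -0.22 between control groups, Gabrb2 was 0.026 for SD in wild-type mice and Gabrb2 was 0.12 for SD averaged over genotypes. With a term for Xist libraries, Gabrb1 was -0.13 for SD in AcPb-/- mice, Gabrb2 was 0.074 for SD in wild-type mice and Gabrb2 was 0.12 for SD averaged over genotypes. With 1 library left out, log2 fold changes crossed 0 in the following ranges. For SD in wild-type mice, Gabrb1 ranged from -0.11 to 0.015 and Gabrb2 ranged from -0.11 to 0.0073. For SD in AcPb-/- mice, Gabra5 ranged from -0.028 to 0.44, Gabrb1 ranged from -0.068 to 0.12 and Gabrb2 ranged from -0.045 to 0.10. Between control groups, Gabra4 ranged from -0.11 to 0.080, Gabra5 ranged from -0.24 to 0.23, Gabrb1 ranged from -0.047 to 0.13, Gabrb2 ranged from -0.073 to 0.066 and Gabrd ranged from -0.086 to 0.17. Between SD groups, Gabra3 ranged from -0.033 to 0.076, Gabra5 ranged from -0.28 to 0.045 and Gabrg1 ranged from -0.10 to 0.043. For SD averaged over genotypes, Gabrb1 ranged from -0.065 to 0.029 and Gabrb2 ranged from -0.051 to 0.025. For the interaction, Gabra3 ranged from -0.0028 to 0.11, Gabra4 ranged from -0.13 to 0.055, Gabra5 ranged from -0.30 to 0.17 and Gabrb1 ranged from -0.013 to 0.18. The cause was not tested. Each member had at least 2038 reads in every group. Thinning to the smallest total left 4 of the 5 wild-type calls, and 22.1% of all genes passed there.

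Deviations of libraries with the same replicate number correlated between -0.43 and 0.23. Libraries with different numbers were not correlated for comparison, so these values do not decide whether the numbers pair the samples. With the replicate number as a block, 0 of all genes and so 0 members passed by limma after SD in either genotype, with 6889 and 4662 genes and 4 and 1 members at an unadjusted p under 0.05. In the average over genotypes 4 members passed with the block, and 37% of all genes. With the block, Gabra4 was 0.084 and Gabrg1 was 0.079 for the interaction, Gabrb1 was -0.086 for SD in AcPb-/- mice, Gabrb2 was 0.065 for SD in wild-type mice and Gabrb2 was 0.0079 for SD averaged over genotypes. CTL-AcPbKO and CTL-WT share 1 number, so their block fit was not run.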
